A study of Mus musculus with 16 samples.

Results

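Antiviral interferon-stimulated effector genes, the genes whose products act directly on viral RNA, viral proteins or infected cells, were followed across 4 myeloid populations of the healing bone-tendon interface after anterior cruciate ligament reconstruction (ACLR) in mice. The 43 genes were picked by name from the 20200 genes of the count table, though with earlier results of these data known. The populations were sorted on days 1 and 14 after surgery from 12-week-old male wild-type C57BL/6 mice, and no group came from uninjured mice. All were live, lineage-negative CD45+ cells. CD9+ macrophages were Ly6G-, CD11b+, F4/80+ and CD9+, with no gate on CX3CR1 in the labels, and CX3CR1+ macrophages were Ly6G-, CD11b+, F4/80+, CX3CR1+ and CD9-. F4/80- cells were Ly6G- and CD11b+, and neutrophils were Ly6G+ and Ly6C+. Each of the 8 groups had 2 libraries, each from cells of several pooled mice, so errors describe the spread between pools and not between single animals. Equal replicate numbers within a day were read as 1 shared pool, and values from a fit with that number as a block are given where they change a call.

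When interferon binds its receptor, JAK kinases activate transcription factors that bind a short DNA element, the interferon-stimulated response element, in the promoters of these genes. The products then bind viral RNA (Ifit proteins), trap incoming particles (Mx GTPases), deplete or distort nucleotides (Rsad2, Cmpk2), make the second messenger that activates RNase L (Oas enzymes), sense nucleic acids (Ddx58, Ifih1, Zbp1) or modify proteins (Isg15). Macrophages and neutrophils express many of them at a low level without infection, and the set is commonly read as a footprint of interferon exposure.

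Of the 43 genes, 41 had a mean level of 3 CPM or more (CPM, read counts scaled to a common library size) in 1 or more of the 8 groups and were tested together with the other genes that did so, 11998 in all. Oas1g, a 2′-5′ oligoadenylate synthetase, and Ifi44, a cytosolic protein, stayed below this level and have no test. Oas1g lay between 0.0725 and 4.16 CPM and Ifi44 between 0 and 0.707 CPM over the 16 libraries. The level was reached in all 8 groups by 28 of the 43 genes, while 13 passed through 3 to 7 groups, Mx2 through the fewest. A difference was called where the quasi-likelihood test of edgeR gave an adjusted p below 0.05, by the Benjamini-Hochberg method over all tested genes, and the log2 fold change was 1 or more in size.

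Many of the genes lie side by side in the genome. In mm10 coordinates the 4 Ifit genes occupy chr19:34550694-34650009, Oas2, Oas3, Oas1g and Oas1a lie within chr5:120730333-120907521, Oasl2 and Oasl1 within chr5:114896936-114937915, Mx1 and Mx2 within chr16:97447035-97560900, and Rsad2 and Cmpk2 within chr12:26442746-26479837. Some members share sequence. How reads of such stretches were counted was not given in the sources used here, so they may be left out or counted to either gene. Of the 50-base stretches of the longest Ifit3 transcript, 51.2% also occurred in Ifit3b, and of those of Oas1a 57.6% occurred in Oas1g. For Ifi204 the share found in other genes was 30.2%, mostly in Ifi211. The exons of Dtx3l and Parp9, on opposite strands, overlapped by 458 bases, 8.0% of the exon bases of Dtx3l, and the strand setting of the counting was not given in the sources used here.

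The response element itself can be seen in several of the promoters. Windows from 250 bases before to 50 bases after the RefSeq start (build GRCm38.p6) were given for 32 of the 43 genes. The core of the element was searched as GAAANNGAAA or, on the other strand, TTTCNNTTTC, where N is any base and matches may overlap. It was present in 15 of the 32 (46.9%) and in 1079 of all 27025 genes with a window (3.99%). With the bases before the start alone it was present in 12 (37.5%) and in 936 (3.46%). A match is a description of the letters and not a measured binding site. One stretch is shown for each of 6 roles, from the gene with the largest log2 fold change over time in CX3CR1+ macrophages among those that held the core before the start, read 5′ to 3′ on the strand of the gene with the core in capitals. The Ifit3 stretch is chr19:34583348-34583441 (plus strand) and holds 2 cores, the first 156 bases before the start. Rsad2 is shown at chr12:26456538-26456597, Oas3 at chr5:120777700-120777759, Ifi203 at chr1:173942493-173942552, Trim30a at chr7:104465195-104465254 and Bst2 at chr8:71537562-71537627, all on the minus strand. In Bst2 2 cores overlap.
Ifit3: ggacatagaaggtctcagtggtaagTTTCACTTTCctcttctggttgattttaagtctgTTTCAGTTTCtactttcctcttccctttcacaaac
Rsad2: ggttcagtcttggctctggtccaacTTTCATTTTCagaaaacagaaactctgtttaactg
Oas3: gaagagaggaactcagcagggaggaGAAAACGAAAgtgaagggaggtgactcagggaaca
Ifi203: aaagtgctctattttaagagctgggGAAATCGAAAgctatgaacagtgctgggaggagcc
Trim30a: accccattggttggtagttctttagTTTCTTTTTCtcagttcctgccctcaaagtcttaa
Bst2: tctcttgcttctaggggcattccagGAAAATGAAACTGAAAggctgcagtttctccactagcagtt

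The libraries held 9233952 to 19814119 counts. The 2 CD9+ libraries of day 1 were the least alike of all pairs (Pearson r of log2 CPM across the tested genes 0.935, against 0.976 to 0.988 in the other groups). Transcripts of the sort markers followed the gates in part. F4/80 (Adgre1) was at 119.9 to 216 CPM in both macrophage groups and 8.4 to 13.8 in F4/80- cells. Ly6g was at 81.4 to 285 in neutrophils and at most 10.1 elsewhere. Cd9 was at 142 to 183 in CD9+ and 6.48 to 21.0 in CX3CR1+ macrophages, but highest in neutrophils (345 to 676). Cx3cr1 was at 133 and 147, then 252 and 292, in CX3CR1+ macrophages of days 1 and 14. CD9+ macrophages held it at 72.7 to 107. Ly6c2, a Ly6C transcript, was at 195 to 374 in neutrophils, and at 393 and 405 in CX3CR1+ macrophages of day 14. The 5 markers of eosinophils, basophils and mast cells summed to 5873 and 9430.3 CPM in the CD9+ libraries of day 14, of which Prg2 and Epx of eosinophils made up most, against 509.5 to 583 in those of day 1 and 16.1 to 75.8 in CX3CR1+ macrophages. None of the 5 was at 0 in both libraries of a group. The 6 neutrophil markers summed to 30013 to 51492 CPM in neutrophils, 11702 to 15791 in F4/80- cells, 2209 to 7019 in CD9+ macrophages on day 1 and 5047 to 7388 on day 14, and 438 to 1066 in CX3CR1+ macrophages, and none of these was at 0 in both libraries of a group either. S100a8 and S100a9 made up most of the sums in neutrophils, F4/80- cells and CD9+ macrophages. On day 14 Mmp8 and Csf3r had lower means in F4/80- cells (19.3 and 155 CPM) than in CX3CR1+ macrophages (157 and 234). Ly6g and Cxcr2 had higher means in F4/80- cells that day (9.14 and 39.1 against 0.541 and 1.61). The 5 markers of plasmacytoid dendritic cells, known as strong interferon producers, summed to at most 9.5 CPM, highest in F4/80- cells of day 14 (6.67 and 9.5) and at 0 in neutrophils of day 14. The 5 markers of conventional dendritic cells summed to 11.9 to 13.9 CPM in CX3CR1+ macrophages on day 1 and 51.9 to 58.2 on day 14, to 8.6 to 13.9 and 22.1 to 26.5 in CD9+ macrophages, and to 61.2 to 63.3 in F4/80- cells of day 14. Flt3 and Cd209a made up most of each of these sums. The CX3CR1+ pair of day 14 was uneven in stromal markers (2.17 to 49.3 CPM) and erythroid markers (6.43 to 50.1). The part of such cells in the differences that follow was not tested. In sorted bulk RNA, fewer expressing cells and less RNA in each cell cannot be told apart.

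Summed over the 43 genes, neutrophils carried the most transcripts and F4/80- cells the fewest. The sum was 4172 and 3423 CPM in neutrophils on day 1 and 3121 and 3000.4 on day 14. CX3CR1+ macrophages stood at 2301 and 2091 on day 1 and at 2625 and 2815 on day 14. CD9+ macrophages stood at 1785 and 1543 on day 1 and at 1189.9 and 1519 on day 14, and F4/80- cells at 1244 and 1096, then 1082 and 1091. By this sum CX3CR1+ macrophages were higher on day 14 and the other 3 populations on day 1, with no overlap between the days, though the nearest libraries of CD9+ macrophages and of F4/80- cells were close. Samd9l alone made up 977 and 771 CPM of the neutrophil sums of day 1. By the median of the tested genes, CX3CR1+ macrophages stood above neutrophils on day 14 (44.2 and 53.4 against 37.0 and 36.1 CPM). On day 1 these medians overlapped (40.2 and 31.5 against 51.8 and 33.8). Sums and medians depend on the scaling factors, which were lowest in neutrophils (0.7521 to 0.7814). Of the 41 tested genes, 18 had their highest group mean in CX3CR1+ macrophages on day 14, 14 in neutrophils on day 1 and 6 in neutrophils on day 14, and 21 had their lowest in F4/80- cells on day 14. The same ranking was not computed for all tested genes, so these counts have no share to be set beside.

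**Figure D1:**
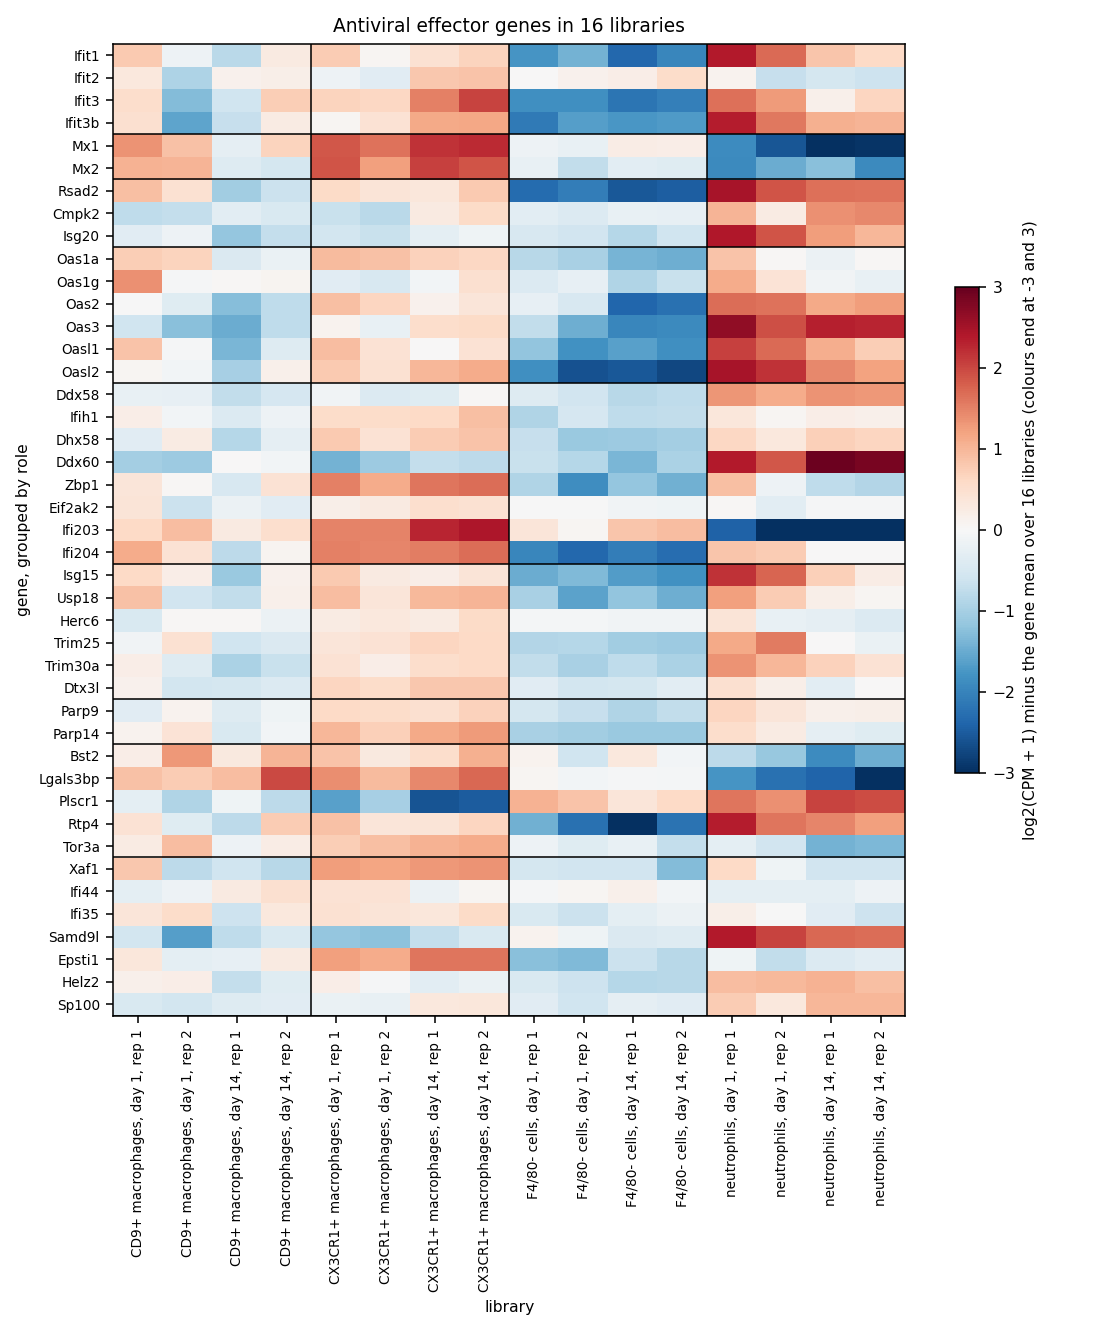
Level of each of the 43 genes (rows, grouped by role with black lines between roles) in the 16 libraries (columns), as log2(CPM + 1) minus the mean of the gene over all libraries, with red above and blue below that mean. Neutrophil columns are red for Oas2, Oas3, Rsad2, Isg20, Ddx60 and Samd9l and blue for Mx1, Ifi203 and Lgals3bp, F4/80- columns are blue in most rows, and Plscr1 is blue in CX3CR1+ columns.

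Per kilobase of exon, which allows genes to be compared with each other, the highest levels were those of Samd9l, an antiviral protein that represses translation, at 161 and 113 CPM per kb in neutrophils of the 2 days. The highest in CX3CR1+ macrophages were Epsti1, an interferon-induced protein of macrophages, at 56.5 and 76.1 CPM per kb on the 2 days, and Ifi204, a DNA-binding sensor, at 43.4 and 46.9. The Ifit genes were low on this scale, at 2.24 to 13.4 CPM per kb in CX3CR1+ macrophages, and Isg15 stood there at 11.6 and 9.5, ranks 13 and 23 of the 43 genes. For Ifit3 and Ifit3b the scale takes all exon bases, shared stretches included.

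The Ifit proteins bind viral RNA whose cap lacks methylation or carries a triphosphate. Ifit3, which stabilises Ifit1 on RNA, was at 9.85 and 9.58 CPM in CX3CR1+ macrophages on day 1 and at 18.7 and 27.0 on day 14. In CD9+ macrophages it was at 8.88 and 1.79, then 3.54 and 10.5, so the pairs overlapped and 1 library of each day was several times the other. F4/80- cells were below 1 CPM in all 4 libraries, and neutrophils were at 20.7 and 15.7 CPM on day 1 and 6.6 and 9.74 on day 14, a difference that did not pass the test (-1.15 ± 0.52, log2 fold change ± SE, adjusted p = 0.12). Ifit1 was at 12.6 and 7.4 CPM, then 9.99 and 11.8, in CX3CR1+ macrophages, with the days overlapping. In neutrophils Ifit1 was at 40.9 and 25 CPM on day 1 and 13.3 and 11.2 on day 14, and this fall passed the test (-1.43 ± 0.42, adjusted p = 0.019). Ifit3b, the near copy of Ifit3, had its highest values, 22.4 and 12.7 CPM, in neutrophils of day 1. Ifit2 had another pattern, since it was at 29.5 to 42.8 CPM in F4/80- cells, within its range of 14.7 to 53.4 in the macrophages.

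The Mx GTPases assemble around incoming nucleoprotein complexes. Mx1, the nuclear form, was at 46.8 and 39.4 CPM in CX3CR1+ macrophages on day 1 and at 57.9 and 60.5 on day 14, at 32.2 and 23.1, then 9.95 and 19.8, in CD9+ macrophages, and at 10.3 to 14.3 in F4/80- cells. Neutrophils had the least, 2.54 and 1.22 CPM on day 1 and 0.48 and 0.718 on day 14. Mx2, the cytoplasmic form, annotated in Gencode as a polymorphic pseudogene, had 0 and 4 counts in neutrophils on day 1 and 5 and 0 on day 14, against 142 to 296 in CX3CR1+ macrophages (7.92 to 14.7 CPM). Neutrophils, highest in Rsad2 and Oas3, were thus nearly without transcripts of both Mx genes. Whether the Mx1 and Mx2 transcripts of these mice encode working proteins was not tested.

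Among the nucleotide and nuclease enzymes, Rsad2 (viperin, which makes a chain-terminating nucleotide) and its neighbour Cmpk2, a mitochondrial nucleotide kinase, parted. Rsad2 was at 24.8 and 21.7 CPM in CX3CR1+ macrophages on day 1 and at 21.0 and 28.9 on day 14, and at 31.3 and 22.8, then 7.37 and 10.1, in CD9+ macrophages. It was at 1.96 to 3.15 CPM in F4/80- cells and at 95 and 63.4, then 53.8 and 52.5, in neutrophils. Cmpk2 was at 18.6 and 16.8 CPM, then 36.5 and 45.2, in CX3CR1+ macrophages, and at 22.5 to 25.9 in F4/80- cells, where Rsad2 was scarce. Isg20, an exonuclease that degrades viral RNA, was at 58.1 and 40.2 CPM, then 25.7 and 21.3, in neutrophils and at 4.02 to 9.34 in every other library.

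The Oas enzymes make 2′-5′ oligoadenylates. Oas3 was at 231 and 140.1 CPM in neutrophils on day 1 and 184 and 178 on day 14, and at 38.7 and 30.5, then 52.0 and 53.7, in CX3CR1+ macrophages. In CD9+ macrophages it was at 23.4 and 14.6, then 12.1 and 20.9. Oas2 was at 41.1 and 34.3 CPM in CX3CR1+ macrophages on day 1 and 23.5 and 27.8 on day 14, with no overlap but below the threshold (-0.56 ± 0.19, adjusted p = 0.076). In F4/80- cells Oas2 went from 18 and 15.1 to 3.33 and 3.74 CPM. Oasl2 was at 191 and 155 CPM, then 94.1 and 78.9, in neutrophils and at 4.23 to 8.7 in F4/80- cells.

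The sensors read viral or misplaced nucleic acid. Ifi203, of the family of DNA-binding proteins that includes Ifi204, was at 69.6 and 70.0 CPM in CX3CR1+ macrophages on day 1 and at 123 and 135 on day 14 (0.88 ± 0.19, adjusted p = 0.0067, under the fold threshold). It was at 37.4 and 47.0, then 29.6 and 34.8, in CD9+ macrophages and at 1.54 to 3.74 in neutrophils. Ddx58 (RIG-I), which senses RNA ends, was at 53.0 and 42.5, then 44.2 and 58.0, in CX3CR1+ macrophages and at 124 to 146 in neutrophils. Dhx58 (LGP2), a relative of RIG-I, was at 31.5 to 41.9 CPM in CX3CR1+ macrophages and 12.3 to 27.4 in CD9+ macrophages, without overlap. Ddx60, a helicase that works with RIG-I, was at 110.1 and 77.6, then 163 and 153, in neutrophils and at 7.09 to 20.6 CPM in the other 12 libraries. Zbp1, a sensor of Z-form nucleic acid, was at 61.6 and 46.7, then 65.7 and 69.0, in CX3CR1+ macrophages and at 40.4 and 18.8, then 11.9 and 11, in neutrophils.

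Isg15 is a ubiquitin-like protein, Usp18 removes it from its targets and also blocks the interferon receptor, and the ligases Herc6, Trim25, Trim30a and Dtx3l attach Isg15 or ubiquitin. Isg15 was at 10.5 and 7.08 CPM in CX3CR1+ macrophages on day 1 and at 6.69 and 7.68 on day 14, and at 29.0 and 21.3, then 9.84 and 6.77, in neutrophils. In CD9+ macrophages it was at 9.02 and 6.63, then 2.1 and 6.26. Usp18 was at 17.8 and 11.9, then 18.5 and 19.1, in CX3CR1+ macrophages, and at 17.3 and 5.68, then 4.97 and 10.1, in CD9+ macrophages. Trim25, which activates RIG-I, was at 325 and 436 CPM, then 148 and 127, in neutrophils, so that its day 1 libraries there stood above those of every other group. Its values in CX3CR1+ macrophages were 188 and 198, then 231 and 221. Trim30a was at 206 and 163, then 131 and 110.1, in neutrophils and at 92.8 to 122 in CX3CR1+ macrophages. Herc6 kept between 6.84 and 15.0 CPM in all 16 libraries.

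Of the PARP proteins, a family that attaches ADP-ribose to proteins, Parp14 was at 187 and 154 CPM, then 207 and 226, in CX3CR1+ macrophages and at 99.7 and 125, then 68.0 and 87.7, in CD9+ macrophages. Parp9, the partner of Dtx3l, was at 50.3 and 48.6, then 46.7 and 54.2, in CX3CR1+ macrophages. CX3CR1+ and CD9+ libraries did not overlap for either gene on either day.

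The membrane and secreted proteins differed among themselves. Plscr1, a phospholipid scramblase that hinders virus entry, was at 9.24 and 14.8 CPM in CX3CR1+ macrophages on day 1 and at 4.26 and 4.63 on day 14, its lowest values in any library. It was at 24.6 and 16, then 27.9 and 17.4, in CD9+ macrophages, at 39.3 to 63.7 in F4/80- cells and at 95 and 80.2, then 127 and 122, in neutrophils. Lgals3bp, a secreted glycoprotein, ran the other way, at 62.4 and 45.6, then 64.4 and 79.0, in CX3CR1+ macrophages and at 1.13 to 6.13 in neutrophils. Bst2 (tetherin), which holds budding virions at the membrane, was at 6.2 to 11.4 CPM in CX3CR1+ macrophages and 0.6 to 2.39 in neutrophils. Rtp4, a chaperone of membrane receptors, was at 24.8 to 55.0 CPM in neutrophils and 13.2 to 19.4 in CX3CR1+ macrophages.

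Of the remaining effectors, Samd9l was at 977 and 771 CPM in neutrophils on day 1 and 625 and 606 on day 14, and at 83.8 and 79.6, then 114 and 136, in CX3CR1+ macrophages. In CD9+ macrophages of day 1 it was at 128 and 58.7. Helz2, a helicase coactivator, was at 140.3 and 120.3, then 98.0 and 107, in CX3CR1+ macrophages and at 231 to 252 in neutrophils. Epsti1 was at 136 and 126, then 178 and 176, in CX3CR1+ macrophages and at 73.3 and 46.8, then 48.0 and 69.5, in CD9+ macrophages, a gap on both days. Sp100, a component of nuclear bodies, was at 279 to 453 CPM in neutrophils and 194 to 284 in CX3CR1+ macrophages.

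**Figure D2:**
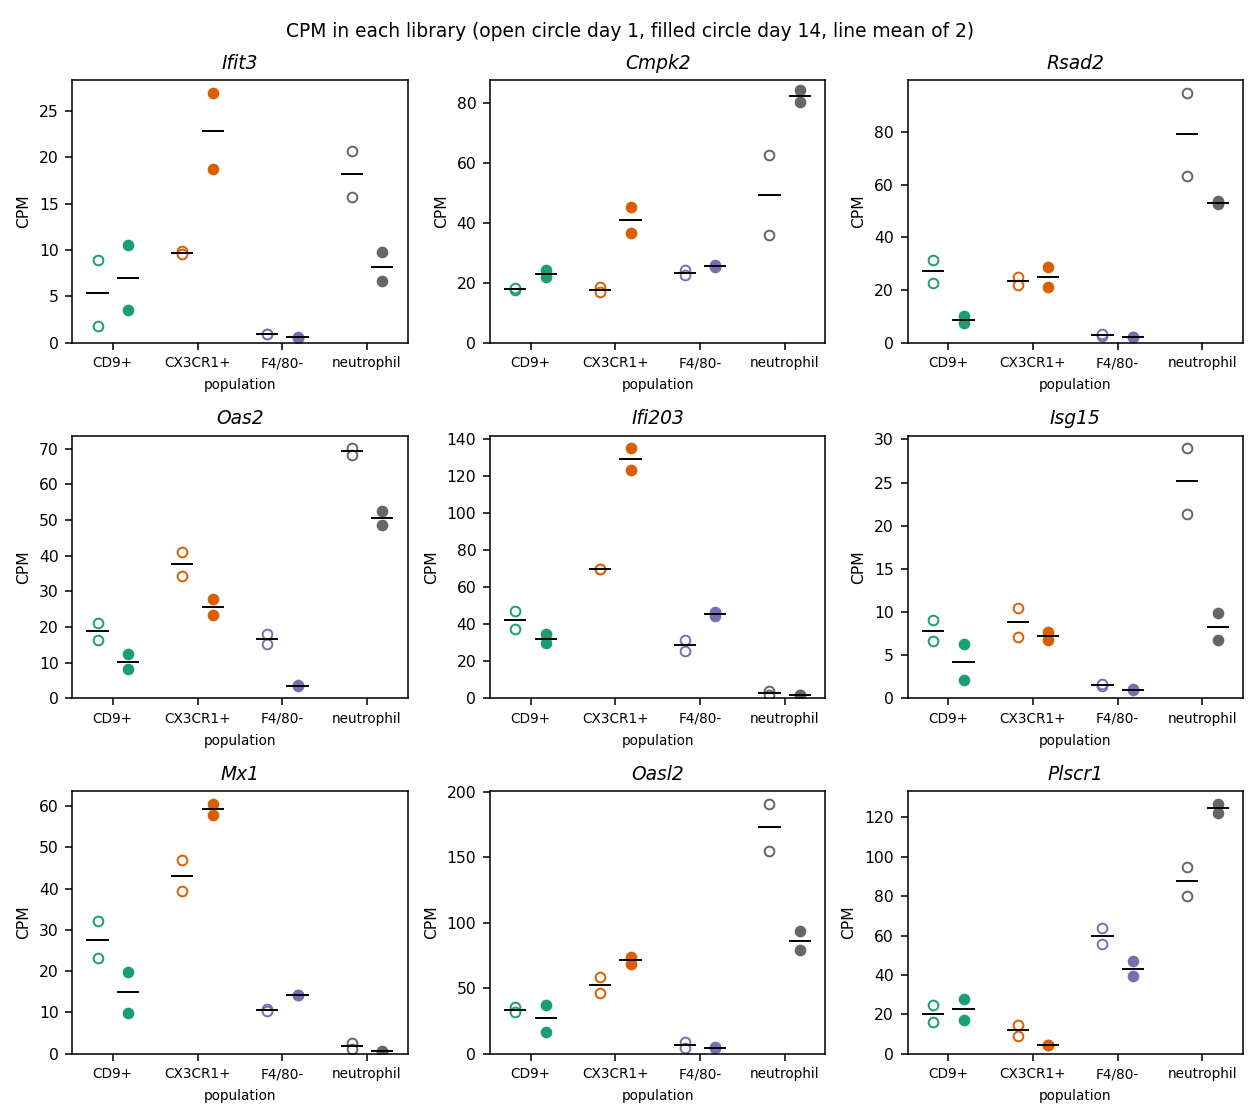
CPM of 9 of the genes (one panel each, y axis from 0) in the 4 populations (x axis), with an open circle for each library of day 1, a filled circle for each of day 14 and a line at the mean of 2. Ifit3, Mx1 and Ifi203 are highest in CX3CR1+ macrophages of day 14, Rsad2, Oas2, Isg15 and Oasl2 are highest in neutrophils of day 1, and Plscr1 is lowest in CX3CR1+ macrophages.

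The first question was whether the genes changed between day 1 and day 14 within each population. In CX3CR1+ macrophages 2 of the 41 rose and 1 fell, near the background of 2.39% higher and 3.47% lower among all tested genes. The median log2 fold change was 0.25, against 0.03 over all tested genes, and 34 of the 41 values lay above 0. Cmpk2 rose (1.21 ± 0.21, adjusted p = 0.0015), Ifit2 rose (1.11 ± 0.31, adjusted p = 0.029), and Plscr1 fell (-1.43 ± 0.29, adjusted p = 0.0045). The Ifit2 call was lost without any 1 of the 4 CX3CR1+ libraries (adjusted p 0.11 to 0.19), and that of Plscr1 without day 1 replicate 2 (-1.06, adjusted p = 0.059) or day 14 replicate 1 (-1.38, adjusted p = 0.055). The largest value, that of Ifit3 (1.23 ± 0.51), did not pass (adjusted p = 0.13).

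In CD9+ macrophages 5 of the 41 genes fell and 1 rose, where 3.48% of all tested genes were called lower and 4.75% higher. Mx2 fell (-1.92 ± 0.59, adjusted p = 0.036), from 6.77 and 6.63 to 1.91 and 1.62 CPM, as did Rsad2 (-1.64 ± 0.25, adjusted p = 0.00049) and Oasl1, an Oas-like protein without synthetase activity (-1.52 ± 0.44, adjusted p = 0.028), from 13.5 and 6.74 to 2.1 and 5.05. Oas1a (-1.14 ± 0.29, adjusted p = 0.014) and Ifi204 (-1.11 ± 0.25, adjusted p = 0.0067) fell by less. Ifi204 went from 118 and 74.3 to 31.4 and 58.1 CPM. Ddx60 rose from 9.58 and 9.05 to 20.6 and 19.3 CPM (1.09 ± 0.21, adjusted p = 0.0026), against the direction of the rest. The median was -0.39, against 0 over all tested genes.

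Those CD9+ counts turned on single libraries, and the counts over all tested genes moved with single libraries as well. Replicate 1 of day 1 exceeded replicate 2 in 29 of the 41 genes, and on day 14 replicate 2 exceeded replicate 1 in 34. Replicate 2 of day 1 was also the lower in the other populations, in 32 genes in CX3CR1+ macrophages, 34 in F4/80- cells and 38 in neutrophils. In the CD9+ pair of day 1 the neutrophil gene S100a8 was at 1895 CPM in replicate 1 and 443 in replicate 2, and mitochondrial genes took 17.7% and 11.9% of the counts, whose part in these counts was not tested. Between 1 and 10 genes were called lower when 1 library was left out: 3 without day 1 replicate 1, 10 without day 1 replicate 2, 1 without day 14 replicate 1 and 9 without day 14 replicate 2. The count called higher was 5 without day 1 replicate 1 and 2 without day 14 replicate 1. With library sizes alone for scaling, which moved the median of all tested genes by 0.192, 1 gene was called lower and 1 higher, and over all tested genes the split of higher against lower went from 570 and 418 to 809 and 301. The calls of Rsad2 and Ddx60 were lost in none of the alternatives that tested them.

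F4/80- cells showed 1 fall among the 41 and 0 rises, where 2.24% and 1.01% of all tested genes were called. The fall was that of Oas2 (-2.22 ± 0.23, adjusted p = 3.7e-05), which no alternative removed. The median was -0.19 (-0.02 over all tested genes), and the next lowest value, of Rtp4 (3.06 and 1.32, then 0.29 and 1.38 CPM), had an SE of 0.73 and did not pass (adjusted p = 0.31). At an unadjusted p below 0.05, 2 of the genes were higher, and DESeq2 called 0. Shares of all tested genes at an unadjusted p were not computed, here or below.

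In neutrophils 8 of the 41 genes fell and 0 rose, where 10.9% and 3.15% of all tested genes were called, and the median was -0.61 (-0.02 over all tested genes). DESeq2 called 0 higher as well, and 4 were higher at an unadjusted p below 0.05. The largest fall was that of Mx1 (-1.64 ± 0.55, adjusted p = 0.037), at 2.54 CPM or less in every library, followed by Isg15 (-1.6 ± 0.39, adjusted p = 0.0068) and Trim25 (-1.47 ± 0.18, adjusted p = 1.9e-05). The others were Ifit1, Zbp1, Isg20, Tor3a, an ATPase of the endoplasmic reticulum (20.2 and 16.5, then 8.76 and 9.13 CPM), and Oasl2, the smallest at -1.0 ± 0.29 (adjusted p = 0.018). The Oasl2 call lay at the fold threshold and was lost in most alternatives, with the block (-0.98, adjusted p = 0.011) and the other scalings (-0.97) among them. Samd9l and Oas3, at the top by level, were not called (-0.51 ± 0.24 and -0.04 ± 0.28). Ddx60 (0.75 ± 0.18, adjusted p = 0.0068) and Cmpk2 (0.74 ± 0.21, adjusted p = 0.014) were higher on day 14 by less than the fold threshold. Without day 1 replicate 1, which exceeded replicate 2 in 38 of the 41 genes, 2 genes were called lower and 2 higher, and 2 and 5 were called lower without day 14 replicate 2 and replicate 1. The range over all single libraries left out was 2 to 10. The Trim25 fall was called in all of these.

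**Figure D3:**
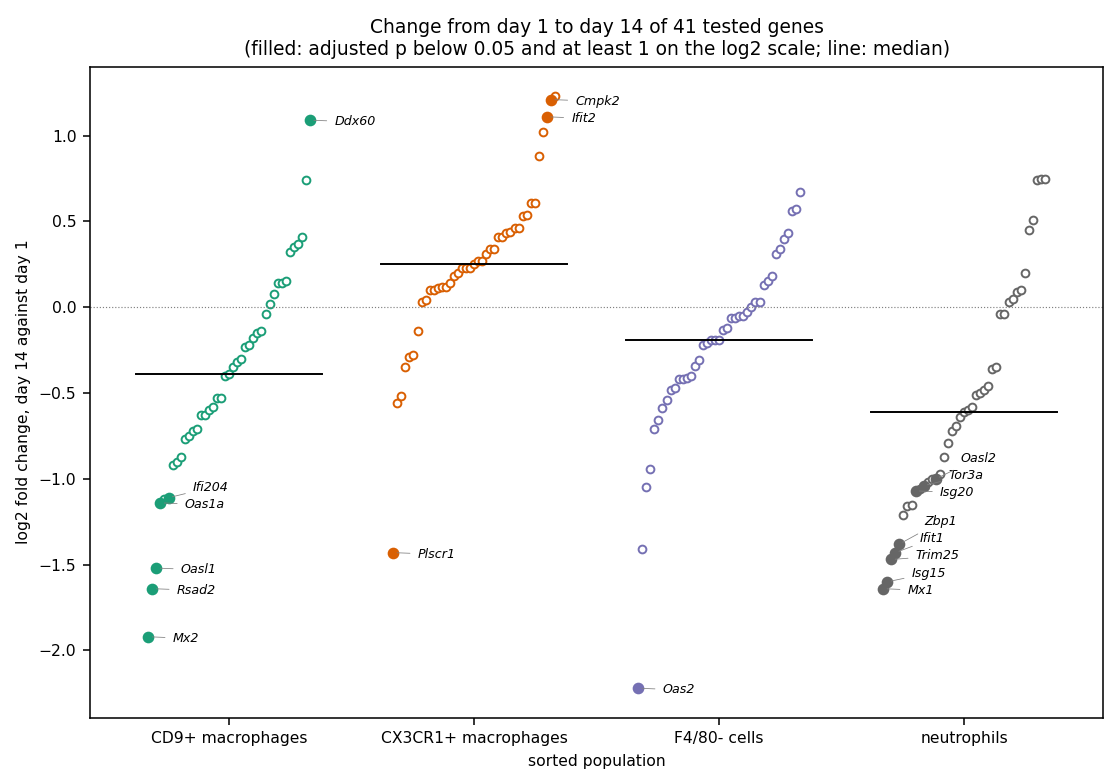
Log2 fold change from day 1 to day 14 (y axis) of the 41 tested genes in each population (x axis), sorted by value within a population, with filled points where the adjusted p is below 0.05 and the change at least 1, and a line at the median. Medians are 0.25 in CX3CR1+ macrophages, -0.39 in CD9+ macrophages, -0.19 in F4/80- cells and -0.61 in neutrophils, and Plscr1 lies apart from the other genes in CX3CR1+ macrophages.

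The second question was how CX3CR1+ macrophages differed from the other populations on each day. On day 1, 3 of the 41 genes were called higher than in CD9+ macrophages (1.88% of all tested genes were) and 0 lower (6.36%), with a median of 0.38 (-0.04 over all tested genes). DESeq2 called 0 lower too. At an unadjusted p below 0.05 there were 15 higher and 1 lower, without a share of all tested genes at that level to set beside them. The comparisons with the other populations on a day share the CX3CR1+ libraries. Zbp1 (1.14 ± 0.36, adjusted p = 0.045), Epsti1 (1.12 ± 0.22, adjusted p = 0.003) and Oas2 (1.0 ± 0.2, adjusted p = 0.0028) were higher in CX3CR1+ cells, and with the block Xaf1 passed as well (1.2, adjusted p = 0.045). Over all tested genes the count called higher moved with single libraries. This count of 3 moved as well, with the uneven CD9+ pair among the causes not tested. It was 10 without CD9+ replicate 1, 0 without CD9+ replicate 2 and 1 without CX3CR1+ replicate 1, and with library sizes alone, which moved the median of all tested genes by 0.239, it was 5. The same scaling turned the split over all tested genes from 225 higher and 763 lower into 501 and 613.

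On day 14 the 2 macrophage populations stood apart. Of the 41 genes 21 were higher in CX3CR1+ macrophages (51.2%), where 4.55% of all tested genes were, and 1 was lower, where 9.65% were. The median log2 fold change was 1.08, a 2.12-fold difference, against -0.01 over all tested genes, and 39 of the 41 values were above 0. The largest was that of Mx2 (2.97 ± 0.59, adjusted p = 0.0015), then Xaf1, a proapoptotic protein (2.28 ± 0.46, adjusted p = 0.0017), which was at 19.3 and 19.9 CPM against 4.4 and 3.64, and Ifi203 (2.0 ± 0.2, adjusted p = 2.8e-06). The smallest called were Ifih1 (MDA5, a sensor of long double-stranded RNA) and Tor3a, each at 1.06. By role, both Mx genes, 4 of 5 tested Oas genes, 5 of 8 sensors, 4 of 6 genes of the Isg15 and ubiquitin role, 1 of 2 PARP genes, 1 of 4 Ifit genes (Ifit3, 1.7 ± 0.53, adjusted p = 0.026), 1 of 3 enzymes (Rsad2, 1.51 ± 0.25, adjusted p = 0.00031), 1 of 5 membrane and secreted proteins and 2 of 6 others were higher.

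The 1 gene called lower was Plscr1 (-2.35 ± 0.29, adjusted p = 2.3e-05). Ddx60, at 12.1 and 11.4 CPM against 20.6 and 19.3, was the other gene below 0 (-0.76 ± 0.21, adjusted p = 0.012). With the block Oasl1 was also called higher (1.24, adjusted p = 0.021). When 1 library was left out, 14 to 26 genes were higher and 1 was lower. The 14 came without CD9+ day 14 replicate 1, whose levels were the lower of the pair. The CD9+ libraries of day 14 were also those with the eosinophil markers given above. Of the conventional dendritic cell markers, Flt3 (mean 24.2 against 5.75 CPM) and Cd209a (26.9 against 13.1) were higher in CX3CR1+ macrophages of that day. Xcr1 (0.359 against 0.643), Clec9a (1.61 against 1.99) and Zbtb46 (1.94 against 2.85) had lower means there. The part of cells with any of these markers was not tested.

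Against F4/80- cells most of the genes were higher on both days. On day 1, 29 of the 41 genes were higher in CX3CR1+ macrophages, where 10.2% of all tested genes were, and 2 were lower, where 10.9% were, with a median of 1.27, a 2.4-fold difference. On day 14, 28 were higher and 1 was lower, against 11.1% and 10.4%, with a median of 1.7, a 3.25-fold difference. The largest on day 1 was Ifit3b (4.07 ± 0.85, adjusted p = 0.0014) and the smallest called Ifi35, an interferon-induced leucine zipper protein (1.03 ± 0.26, adjusted p = 0.0053), at 21.5 and 20.6 CPM against 11.1 and 9.5. On day 14 the largest was Ifit3 (5.29 ± 0.69, adjusted p = 2e-05) and the smallest called Dtx3l (1.22 ± 0.19, adjusted p = 0.00013), at 163 in both libraries against 64.9 and 74.5. All 5 tested Oas genes, both Mx and both PARP genes and 3 of 4 Ifit genes were higher on both days.

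Plscr1 was lower in CX3CR1+ macrophages than in F4/80- cells on both days (-2.32 ± 0.25, adjusted p = 3.9e-06, and -3.28 ± 0.29, adjusted p = 4.5e-07), and Samd9l on day 1 (-1.2 ± 0.25, adjusted p = 0.0014), where F4/80- cells had 202 and 173 CPM. Genes whose differences were below the threshold on both days included Ifit2, Cmpk2, Isg20, Ddx58, Ddx60, Eif2ak2 (PKR, which halts translation), Herc6, Bst2, Helz2 and Sp100. Leaving out single libraries kept the count higher between 25 and 29 on day 1 and at 28 on day 14.

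Against neutrophils genes were called in both directions, as were many of all tested genes. On day 1, 7 of the 41 (17.1%) were higher in CX3CR1+ macrophages and 14 (34.1%) lower, where 26.9% and 24.1% of all tested genes were, and the median was -0.37. On day 14, 13 (31.7%) were higher and 9 (22.0%) lower, near the 27.1% and 20.9% of all tested genes, and the median was 0.53. The largest differences on day 1 were Mx2 (5.92 ± 0.79, adjusted p = 8.3e-06), Ifi203 (4.62 ± 0.25, adjusted p = 7.2e-10) and Mx1 (4.49 ± 0.35, adjusted p = 2.8e-08), and on day 14 Mx1 led (6.59 ± 0.43, adjusted p = 3.4e-09). The Mx2 values rest on 4 and 5 counts in all in neutrophils of the 2 days. Tor3a was the smallest called higher on day 1 (1.29 ± 0.23, adjusted p = 0.00016) and Ifit2 on day 14 (1.45 ± 0.32, adjusted p = 0.001).

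The genes lower than in neutrophils were led by Ddx60 (-3.54 ± 0.21, adjusted p = 1.7e-09) on day 1 and Plscr1 (-4.81 ± 0.3, adjusted p = 2.2e-09) on day 14, and the smallest called were Oasl1 on day 1 (-1.25 ± 0.39, adjusted p = 0.01) and Cmpk2 on day 14 (-1.01 ± 0.21, adjusted p = 0.00052), which lay at the fold threshold and was lost in several alternatives. All 3 nucleotide and nuclease enzymes were called lower on both days, but with library sizes alone none of the 3 kept the day 14 call (Isg20 -0.92, Rsad2 -0.59, Cmpk2 -0.5), nor Cmpk2 that of day 1 (-0.9), and with upper quartile factors Rsad2 (-0.88) and Cmpk2 (-0.8) lost that of day 14. With the block Xaf1 was called higher on day 1 (1.07, adjusted p = 0.02). The split moved with the scaling, and the neutrophil libraries had the lowest factors (0.7521 to 0.7814, against 0.8973 to 1.158 elsewhere). With library sizes alone the median of all tested genes moved by 0.571 on day 1 and 0.509 on day 14, and the calls became 12 higher and 8 lower, then 21 and 4. Over all tested genes the splits moved from 3227 and 2886 to 4598 and 1758 on day 1 and from 3253 and 2505 to 4536 and 1622 on day 14. With upper quartile factors 9 were higher and 13 lower on day 1 and 18 and 7 on day 14, and over all tested genes 3816 and 2262, then 3763 and 2093.

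**Figure D4:**
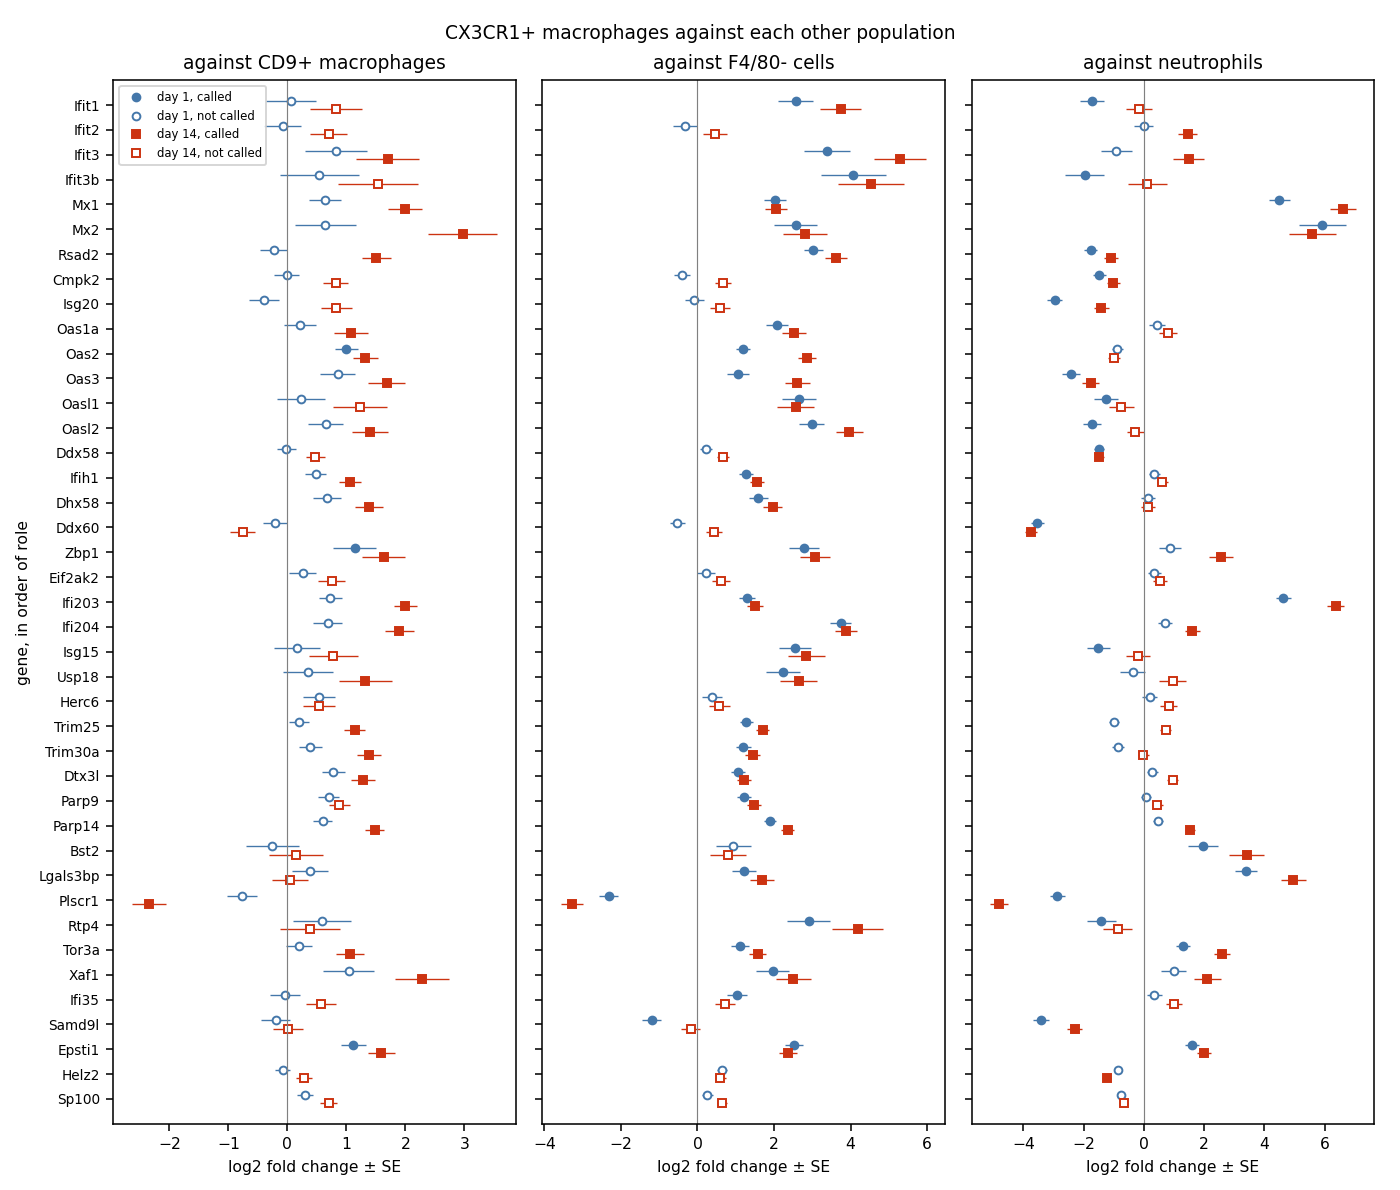
Log2 fold change ± SE (x axes) of CX3CR1+ macrophages against CD9+ macrophages, F4/80- cells and neutrophils (panels) for the 41 tested genes (y axis, in order of role), in blue circles for day 1 and red squares for day 14, filled where called. Against CD9+ macrophages 3 genes are called higher on day 1 and 21 on day 14, and Plscr1 lies left of 0 in all panels.

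**Figure D5:**
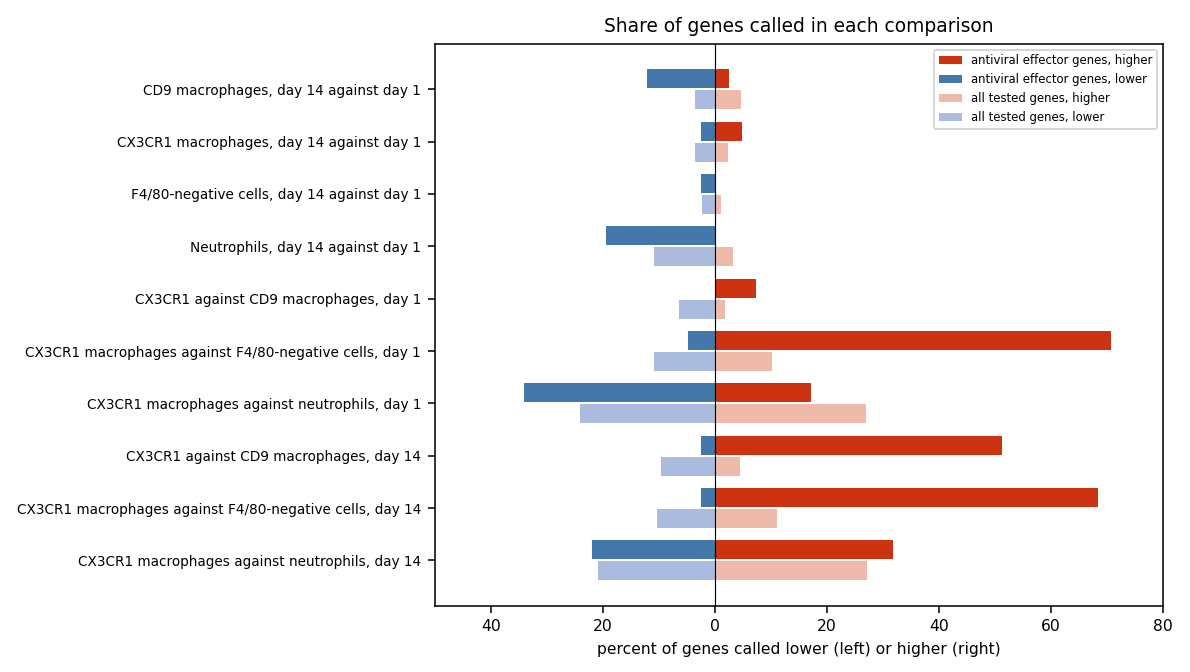
Percent of genes called higher (right) and lower (left) in each comparison (y axis), for the 41 tested antiviral effector genes (dark bars) and all 11998 tested genes (pale bars). The dark bar to the right reaches 70.7% and 68.3% against F4/80- cells and 51.2% against CD9+ macrophages on day 14, while against neutrophils dark and pale bars are of more similar length.

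The third question was whether the change from day 1 to day 14 in CX3CR1+ macrophages differed from that in the other populations, tested as an interaction. These contrasts share the CX3CR1+ libraries. Against CD9+ macrophages 2 of the 41 genes were called higher and 1 lower, where 0.933% and 1.34% of all tested genes were, and the median difference in log2 fold change was 0.75. Rsad2 (1.74 ± 0.34, adjusted p = 0.011) and Ifi203 (1.27 ± 0.28, adjusted p = 0.02) changed upward relative to CD9+ cells and Plscr1 (-1.58 ± 0.39, adjusted p = 0.041) downward. For Rsad2 the difference lay in the fall in CD9+ macrophages, since its own change in CX3CR1+ macrophages was 0.1 ± 0.23. The count higher was 0 to 7 when 1 library was left out, 0 without CX3CR1+ day 1 replicate 2, CD9+ day 14 replicate 1 or CX3CR1+ day 14 replicate 2, and 7 without CD9+ day 1 replicate 2. With the block 4 were called higher and 0 lower, since Mx1 (1.39, adjusted p = 0.039) and Ifi204 (1.21, adjusted p = 0.044) passed and Plscr1 (-1.59, adjusted p = 0.05) did not. The Plscr1 call was lost without CX3CR1+ day 1 replicate 2 (-1.22, adjusted p = 0.17) and in most of the other fits that left out 1 library. Over all tested genes the split was 112 higher and 161 lower, with library sizes alone 55 and 260, and with upper quartile factors 82 and 183.

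Against F4/80- cells 1 gene, Oas2, was called higher (1.66 ± 0.3, adjusted p = 0.011) and 0 lower, where 0.508% and 0.5% of all tested genes were. At an unadjusted p below 0.05, 1 was lower, and DESeq2 called 3 higher and 0 lower. Oas2 itself was lower on day 14 in both populations. Its mean went from 37.7 to 25.6 CPM in CX3CR1+ macrophages and from 16.5 to 3.54 in F4/80- cells. The Oas2 call was lost without CX3CR1+ day 1 replicate 2, CX3CR1+ day 14 replicate 2, F4/80- day 1 replicate 1 or either F4/80- library of day 14 (adjusted p 0.063 to 0.098). With the block Oas3 passed as well (1.52, adjusted p = 0.011), for a count of 2. Against neutrophils 11 were called higher and 1 lower, where 7.3% and 1.79% were, with a median of 0.68. The largest was Ifit3 (2.38 ± 0.73, adjusted p = 0.045), and the smallest called was Parp14 (1.06 ± 0.22, adjusted p = 0.0053). Trim25 (1.7 ± 0.24, adjusted p = 0.00032) had the smallest adjusted p. Plscr1 (-1.94 ± 0.38, adjusted p = 0.0032) again went the other way. Of the genes called higher, Mx1, Isg20, Oasl2, Zbp1, Trim25 and Tor3a were called lower over time in neutrophils. Ifit2 alone was called higher over time in CX3CR1+ macrophages. Mx1 had 4 and 7 counts in neutrophils of day 14. Without 1 library the count higher was 2 to 13, the 2 without neutrophil day 1 replicate 1, and it was 6 with library sizes alone. The calls of Isg20, Trim25 and Plscr1 were lost in none of the fits run.

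The genes upstream of these effectors were read from lists by function. The 20 interferon genes listed were not among the genes of the table, in which the smallest total of a gene over the libraries was 17 counts, and were not analysed here. All 6 receptor chains, 7 JAK-STAT genes, 6 interferon regulatory factors, 8 negative regulators and 14 sensing receptors and adaptors were tested. The type I receptor chain Ifnar1 was at 193 and 214 CPM in CX3CR1+ macrophages on day 1 and 130.3 and 132 on day 14. No JAK-STAT gene was called over time outside neutrophils, where Jak2 fell (-1.66 ± 0.15, adjusted p = 8.9e-07), from 398 and 575 to 162 and 145 CPM.

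Over time in CX3CR1+ macrophages 1 receptor chain and 1 negative regulator fell and the other lists had 0 calls, where 3.47% of all tested genes were called lower and 2.39% higher. Socs3, an inhibitor of JAK kinases, went from 805 and 681 to 96.6 and 114 CPM (-2.82 ± 0.27, adjusted p = 6.8e-06), and it fell in the other 3 populations too, by 2.43 in CD9+ macrophages, 3.57 in F4/80- cells and 2.07 in neutrophils on the log2 scale. Ifnlr1, the type III receptor chain, was at 2.19 and 1.3 CPM on day 1 and 0 and 0.278 on day 14 in CX3CR1+ macrophages, against 7.16 to 9.3 in CD9+ macrophages, 17.3 to 21.3 in F4/80- cells and 89.6 to 142 in neutrophils. In neutrophils, where 10.9% of all tested genes were called lower, 2 of 6 regulatory factors fell, Irf5 (-2.04 ± 0.13, adjusted p = 4e-08) and Irf8 (-1.63 ± 0.24, adjusted p = 0.00013), and 4 of 14 sensing genes, led by the kinase Ikbke (-3.72 ± 0.24, adjusted p = 4.6e-08) and the DNA receptor Tlr9 (-2.57 ± 0.32, adjusted p = 2.6e-05).

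Between the macrophage populations of day 14, where 4.55% of all tested genes were called higher in CX3CR1+ cells, 2 of 7 JAK-STAT genes, Irf9 (1.25 ± 0.19, adjusted p = 0.00017) and Stat2 (1.23 ± 0.23, adjusted p = 0.00086), were higher in CX3CR1+ cells, where all 7 had a median of 0.5. So were 3 of 6 regulatory factors, Irf5 (1.44 ± 0.12, adjusted p = 5.6e-07), Irf7 (1.24 ± 0.23, adjusted p = 0.00088) and Irf8 (1.06 ± 0.17, adjusted p = 0.00023), and 6 of 14 sensing genes, led by Tlr9 (2.2 ± 0.23, adjusted p = 3.5e-06) and Tlr8 (1.65 ± 0.25, adjusted p = 0.00014). Irf7, which amplifies interferon production and is itself induced by interferon, was at 101 and 111 CPM in CX3CR1+ macrophages and 31.4 and 57.9 in CD9+ macrophages. On day 1 no JAK-STAT gene or regulatory factor was called between them, and 2 of 14 sensing genes were (1.88% of all tested genes), Tlr8 (1.48 ± 0.25, adjusted p = 0.00075) and Tlr7 (1.02 ± 0.14, adjusted p = 0.00013). Of the 6 receptor chains, Ifnlr1 was called lower in CX3CR1+ cells on both days, and 1 other chain was called higher on each day.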

How the data were processed

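RNA of the 16 sorted libraries was sequenced as paired-end reads from SMART-Seq Stranded libraries. Per the methods, the authors used Cutadapt for trimming and STAR for alignment to mm10, then counted reads in exons of the Gencode annotation. The deposited values are raw counts per gene, not normalized. The strand setting was not given in the sources used here. All columns of the table were mapped to samples, so that 0 were left unused. Samples were grouped by sorted population and day from the labels, 2 libraries in each of 8 groups. Both are pools of mice, and p-values measure the spread between pools. The study used too few mice for every library to have a pool of its own, so libraries of a day with the same number in the labels were taken to share one. Their deviations from the group means correlated by 0.0132 to 0.144 across genes.

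CPM were computed with TMM factors. Genes with a group mean of at least 3 CPM (by library size) in at least 1 group were kept, 11998 of 20200. One edgeR model (version 4.0.16, glmQLFit and glmQLFTest, R 4.3.3) had a mean for each group, and Benjamini-Hochberg adjustment ran over all tested genes in each comparison. A call needed an adjusted p below 0.05 and a log2 fold change of 1 or more in size. Interaction contrasts of this model compared the changes over time of 2 populations. CPM per kb used the exon bases of each gene in Gencode. The steps were tested on simulated counts.

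The alternatives were DESeq2 1.42.0, other scalings, no filter or one in every group, the replicate number as a block within a day, no fold threshold, a fit without neutrophils, and leaving out each library in turn, where the lone library of a group was assumed to vary like the other groups.

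The genes, their roles, the pathway lists and the markers were chosen with earlier results of these data known. Named are, for each role, the genes with the highest and lowest log2 fold change over time in CX3CR1+ macrophages. In each comparison the called genes with the largest and smallest value and those called against the main direction are named too. Of the pathway genes that were called, only some are named. Pathway calls of CX3CR1+ macrophages against F4/80- cells and neutrophils, and those of the interactions, are not given. Further genes were named to account for all 43 and were chosen with their values seen. Totals were 10587857 to 19814119 counts on day 1 and 9233952 to 12721779 on day 14. A limit of detection of 3 counts or fewer was set but applied in no filter or test. This limit covers counting error alone, because no molecular identifiers mark independent molecules. Promoter windows came from RefSeq (GRCm38.p6). Protein sequences were not used here. One gene of the pathway lists is not reported here.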

Additional observations from a re-analysis of the deposited data

Results flagged for a closer look

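The results listed here are those in which the change from day 1 to day 14 in CX3CR1+ macrophages differed from that in another population by the interaction test (difference in log2 fold change ± SE, quasi-likelihood test of edgeR, adjusted over all tested genes by the Benjamini-Hochberg method). No group had more than 2 libraries, so single libraries far from the rest of their group could not be tested. A positive difference can come with a fall in the other population and does not by itself mean a rise in CX3CR1+ macrophages.

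Against CD9+ macrophages Rsad2 differed by 1.74 ± 0.34 (adjusted p = 0.011), Ifi203 by 1.27 ± 0.28 (adjusted p = 0.02) and Plscr1 by -1.58 ± 0.39 (adjusted p = 0.041), which was -1.59 with the replicate number as a block and no longer passed (adjusted p = 0.05). Against F4/80- cells Oas2 differed by 1.66 ± 0.3 (adjusted p = 0.011).

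Against neutrophils the differences of RNA-binding and trapping proteins were 1.47 ± 0.45 for Ifit2 (adjusted p = 0.045), 2.38 ± 0.73 for Ifit3 (adjusted p = 0.045) and 2.1 ± 0.61 for Mx1 (adjusted p = 0.036). Those of enzymes and sensors were 1.52 ± 0.34 for Isg20 (adjusted p = 0.0082), 1.44 ± 0.41 for Oasl2 (adjusted p = 0.032), 1.69 ± 0.53 for Zbp1 (adjusted p = 0.048) and 1.75 ± 0.39 for Ifi203 (adjusted p = 0.008). Trim25 differed by 1.7 ± 0.24 (adjusted p = 0.00032), Parp14 by 1.06 ± 0.22 (adjusted p = 0.0053), Tor3a by 1.31 ± 0.34 (adjusted p = 0.019) and Samd9l by 1.12 ± 0.35 (adjusted p = 0.048). Plscr1 differed by -1.94 ± 0.38 (adjusted p = 0.0032), the 1 gene of this comparison in the other direction.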

How the results depend on the processing

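No direction of a called gene reversed, and of 642 alternative values of the 26 counts of called genes 553 lay within 1.5 times the reported count. With library sizes alone for scaling, 1 gene fell over time in CD9+ macrophages, 5 were higher in CX3CR1+ than in CD9+ macrophages on day 1, 12 were higher and 8 lower than in neutrophils on day 1 and 21 and 4 on day 14, and the interaction with neutrophils had 6 higher. With upper quartile factors that interaction had 7 higher. When only genes that reached 3 CPM in every group were tested, 28 of the 43, the counts were 1 lower over time in CD9+ macrophages and 5 lower in neutrophils, on day 1 14 higher than in F4/80- cells, 4 higher and 8 lower than in neutrophils, on day 14 12 higher than in CD9+ macrophages and 16 higher than in F4/80- cells, and 0 higher in the interaction with CD9+ macrophages; these counts are of fewer genes by construction. Without the fold threshold they were 11 lower over time in CD9+ macrophages, 4 higher in CX3CR1+ macrophages, 3 higher in neutrophils, 7 higher than in CD9+ macrophages and 11 higher than in neutrophils on day 1, and 2 lower than in CD9+ macrophages and 20 higher than in neutrophils on day 14. Over all tested genes this setting called 1109 lower over time in CD9+ macrophages, 785 higher in CX3CR1+ macrophages and 1375 higher in neutrophils, 634 and 4197 higher against CD9+ macrophages and neutrophils on day 1, and 1742 lower and 4245 higher on day 14. DESeq2 called 6 genes higher in the interaction with CD9+ macrophages and 3 in that with F4/80- cells, and without neutrophil libraries the interaction with CD9+ macrophages had 0 lower. For the other settings the cause was not tested. When single libraries were left out, as given next, the counts over all tested genes moved too.

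Leaving out single libraries gave, over time, 1 to 5 higher and 1 to 10 lower in CD9+ macrophages, 1 to 3 and 0 to 1 in CX3CR1+ macrophages, 0 and 1 in F4/80- cells, and 0 to 2 and 2 to 10 in neutrophils. On day 1 it gave 0 to 10 and 0 to 1 against CD9+ macrophages, 25 to 29 and 2 against F4/80- cells, and 7 to 9 and 12 to 15 against neutrophils. On day 14 it gave 14 to 26 and 1, 28 and 1, and 12 to 15 and 7 to 10. The interactions gave 0 to 7 and 0 to 1, 0 to 3 and 0, and 2 to 13 and 1.

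When replicate numbers entered as a block within each day, the interaction with CD9+ macrophages had 4 higher and 0 lower and that with F4/80- cells 2 higher, and no other count moved by over 1.5 times. The block gained 6 calls of single genes and lost 2, all given with their comparisons, and changed no other. With 2 libraries a group, genes near the threshold were called or not by single libraries, and genes with a few counts, such as Mx2 in neutrophils, were at the limit of the depth.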
